A study of Mus musculus with 24 samples.

Results

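The 10 genes described here encode cyclic nucleotide phosphodiesterases: Pde1a, Pde3a, Pde3b, Pde4b, Pde4d, Pde5a, Pde7a, Pde7b, Pde8a and Pde10a. They were chosen by symbol, each through its transcript cluster of highest mean signal, and are 10 of the 22180 genes the array names. Cells were primary calvarial osteoblasts from C57BL/6J pups 7 to 10 days old, used at passage 2, either labelled wild type or labelled β-Arrestin 2 knockout on the same background. RNA was taken on days 2, 5, 10 and 28. From day 3 every culture of both genotypes received ascorbic acid (50 mg/L) with β-glycerophosphate (5 mM), so that day 2 preceded this medium. There were 3 arrays in each of 8 groups, 24 in all, each from cells that the labels describe as independently prepared.

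Phosphodiesterases hydrolyse cAMP and cGMP, the second messengers made by adenylyl and guanylyl cyclases. They set how far and how long a signal from a Gs-coupled receptor, such as the parathyroid hormone receptor of osteoblasts, spreads through protein kinase A and its other effectors. β-arrestins end receptor signalling, and they can also carry PDE4 enzymes, PDE4D among them, to activated β-adrenergic receptors. Of the genes measured here, Pde4b, Pde4d, Pde7a, Pde7b and Pde8a encode cAMP-specific enzymes, and Pde5a encodes a cGMP-specific one. Pde1a, Pde3a, Pde3b and Pde10a encode enzymes that hydrolyse both nucleotides.

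Arrb2, which encodes β-arrestin 2, went against the genotype labels. Its signal was higher in the arrays labelled knockout, by 1.21 on the log2 scale on day 2 (adjusted p = 0.0206) and by 1.58 on day 5 (adjusted p = 0.000357). The differences on days 10 and 28 were 0.82 (adjusted p = 0.0932) and 0.40 (adjusted p = 0.797). The day 2 call ended without replicate 1, 2 or 3 of the labelled wild type or replicate 2 of the labelled knockout (adjusted p from 0.0873 to 0.175), and the day 10 difference was called without replicate 3 of the labelled wild type (0.0367). The position of the array's Arrb2 probes relative to the deletion is not given in the sources used here. Every direction below is therefore that of the arrays as labelled. Arrb1, which encodes the other non-visual arrestin, was higher on day 28 than on day 2, by 0.81 in the labelled wild type (adjusted p = 0.00895) and by 0.99 in the labelled knockout (adjusted p = 0.00210).

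Values are log2 RMA signals, and a change is a difference of group means on that scale. The test took genes at or above the array median in at least 3 of the 24 arrays, and a gene is called changed at a limma adjusted p under 0.05. Signals of different genes come from different probes and are not set against each other. Of the 10 genes, 9 were tested, and Pde4d was not. Members were called against day 2 as follows. On day 5, 1 of 9 was called in each genotype, where 5.55% of all tested genes were called in the labelled wild type and 2.77% in the labelled knockout. On day 10, 5 of 9 were called in the labelled wild type (30.7% of all genes) and 2 of 9 in the labelled knockout (24.6%). On day 28, 4 of 9 were called in the labelled wild type (38.8%) and 3 of 9 in the labelled knockout (38.0%). The day 28 counts lie near the share of all genes. The median change of the 9 genes on day 28 was 0.38 in the labelled wild type and 0.35 in the labelled knockout, against -0.03 and -0.02 over all tested genes. The members were chosen with earlier results of these data known. Their counts and medians beside those of all genes are therefore descriptions, and no result about the family.

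The arrays of a later day did not overlap those of day 2 for 5 of the 9 genes on day 5 in the labelled wild type, as for 23.4% of all tested genes, and for 2 of 9 in the labelled knockout (22.9%). On day 10 this held for 5 of 9 (41.6%) and 3 of 9 (43.2%), and on day 28 for 4 of 9 (52.8%) and 3 of 9 (47.7%).

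The promoter sequences of the genes that moved most, upward or downward, are shown first. RefSeq promoters on GRCm38.p6 were held for 7 of the 10 genes, with 14 transcription starts. Pde3a, Pde3b and Pde7a had no entry. Each sequence is the 250 bases before a start, 5′ to 3′ on the gene's strand. Capitals mark matches to TGACG or its reverse complement CGTCA, the short form of the cAMP response element, and to TGTGGT or ACCACA, a RUNX core site. Pde7b, the gene with the largest rise, is at chr10:20548329-20548578 (minus strand). Pde1a, the gene with the next largest rise, is shown for the fourth of its 4 listed starts, at chr2:79908400-79908649 (minus strand). That is the only Pde1a start with a RUNX match, and the first and second starts held no match to either motif. Pde8a, which fell, is at chr7:81213015-81213264 (plus strand).
Pde7b: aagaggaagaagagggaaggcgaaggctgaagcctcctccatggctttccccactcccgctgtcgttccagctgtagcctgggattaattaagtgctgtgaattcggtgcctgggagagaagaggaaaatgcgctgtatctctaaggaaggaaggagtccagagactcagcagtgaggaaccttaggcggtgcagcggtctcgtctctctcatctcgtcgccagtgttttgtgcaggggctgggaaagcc
Pde1a: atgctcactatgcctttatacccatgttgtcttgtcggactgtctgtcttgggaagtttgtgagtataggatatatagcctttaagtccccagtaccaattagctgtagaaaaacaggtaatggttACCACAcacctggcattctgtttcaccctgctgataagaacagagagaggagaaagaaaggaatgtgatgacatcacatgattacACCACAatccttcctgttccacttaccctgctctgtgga
Pde8a: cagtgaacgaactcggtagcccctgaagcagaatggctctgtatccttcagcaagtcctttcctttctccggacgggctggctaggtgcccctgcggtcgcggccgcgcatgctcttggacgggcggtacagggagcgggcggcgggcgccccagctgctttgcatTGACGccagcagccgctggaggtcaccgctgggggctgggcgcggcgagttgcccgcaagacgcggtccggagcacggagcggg

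The full cAMP response element, TGACGTCA, was searched on both strands and matched 0 of the 14 windows, against 1.55% of the 32851 promoters in the table. The short form, which the full element also contains, matched 3 of the 14 windows, against 17.8% of all promoters. These were the third start of Pde1a, the first of Pde4b and the single start of Pde8a, where it begins 84 bases before the start. The RUNX core matched 4 of the 14, against 14.0% of all promoters. These were the fourth start of Pde1a, with matches beginning 124 and 39 bases before it, the third of Pde4b and both starts of Pde10a. The Pde7b window held neither motif. Starts of 1 gene share a locus, a match is a description of letters, and which start was used in these cells was not measured.

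**Figure D1:**
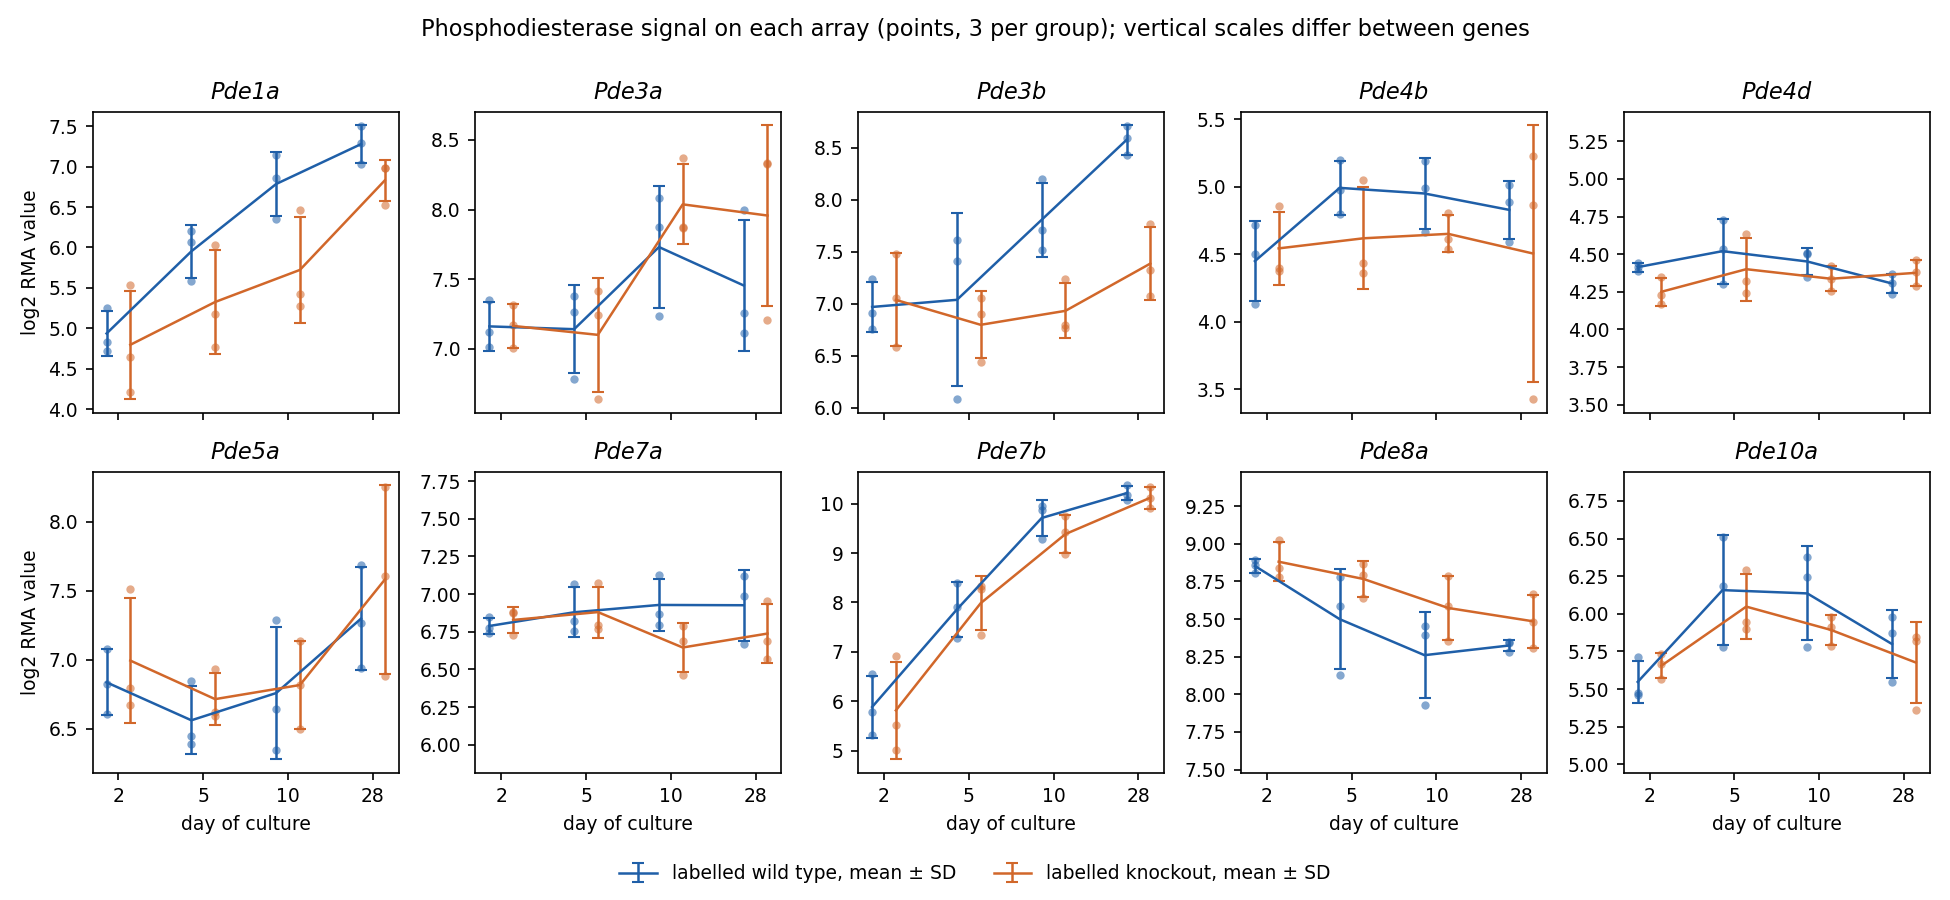
Log2 RMA signal (vertical axes, which differ between genes) of the 10 phosphodiesterase genes by day of culture (horizontal axis), with 1 point per array and the mean ± SD of 3 arrays for the labelled wild type (blue) and the labelled knockout (orange). Pde7b rises in both genotypes from means of 5.88 and 5.81 to 10.21 and 10.12, while Pde3b ends at 8.58 in the labelled wild type and 7.39 in the labelled knockout.

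Among the cAMP-specific enzymes, Pde7b (transcript cluster 17239638) rose at every later day in both genotypes, and no other member changed by as much. In the labelled wild type its signal was 6.55, 5.79 and 5.31 on day 2, 7.91, 8.38 and 7.29 on day 5, 9.88, 9.96 and 9.29 on day 10, and 10.18, 10.37 and 10.08 on day 28. The day 2 arrays lay below all later ones, and the day 5 arrays lay below those of days 10 and 28. Against a day 2 mean of 5.88 ± 0.63 (SD, n = 3), the rise was 3.93-fold on day 5, 14.2-fold on day 10 and 20.1-fold on day 28 (log2 changes of 1.98, 3.83 and 4.33, SE 0.40; adjusted p = 0.00574, 1.13e-06 and 1.25e-07).

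In the labelled knockout, Pde7b was at 5.53, 6.91 and 5.00 on day 2, 7.35, 8.34 and 8.27 on day 5, 9.42, 9.75 and 8.98 on day 10, and 10.11, 10.34 and 9.91 on day 28. The same order of days was seen, with no overlap of day 2 with any later day. Rises were 4.50-fold, 11.9-fold and 19.8-fold (log2 changes of 2.17, 3.57 and 4.30; adjusted p = 0.00571, 5.00e-06 and 2.27e-07). When only the day 2 and day 5 knockout arrays were fitted, the day 5 rise had an adjusted p of 0.111. The call for each day held in both genotypes when any 1 array was left out. Ordered by mean, each Pde7b group of days 28 and 10 overlapped its neighbour in the order, a gap of 1.40 separated day 10 from day 5, and a gap of 1.98 separated day 5 from day 2.

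No Pde7b difference between the labelled genotypes was called. On day 28 the rise in the labelled knockout differed from that in the labelled wild type by -0.02, with a 95% interval from -1.21 to 1.16. The genotypes overlapped on all 4 days. The 3 named genes whose signal followed Pde7b most closely over the 24 arrays were Dpt (dermatopontin, a matrix protein; r = 0.97), Ctso (a cathepsin; r = 0.97) and Adam5 (r = 0.97). These r values are descriptions that share the same arrays and the same course of days.

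Pde7a (17404269), the close relative of Pde7b, moved within a narrow range. Its group means lay between 6.65 (labelled knockout, day 10) and 6.93 (labelled wild type, day 10), and it was called in no comparison. On day 10 its 3 labelled knockout arrays (6.69, 6.79 and 6.47) lay just below the 3 labelled wild type arrays (6.80, 6.86 and 7.12), a difference of -0.28 with an adjusted p of 0.663. A second transcript cluster for Pde7a (17396223), with a lower mean and below the array median on 19 of 24 arrays, fell by 0.59 from day 2 to day 28 in the labelled knockout (adjusted p = 0.00402). The clusters gave different calls there, so that Pde7a result is uncertain.

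Pde8a (17479668), a cAMP-specific enzyme with high affinity for its substrate, was the 1 member that fell. In the labelled wild type its signal was 8.86, 8.80 and 8.89 on day 2, 7.93, 8.39 and 8.46 on day 10, and 8.28, 8.34 and 8.35 on day 28. All later wild type arrays, those of day 5 (8.13, 8.59 and 8.78) included, lay below the day 2 arrays. The fall was 1.51-fold on day 10 (log2 change -0.59, SE 0.16, adjusted p = 0.00841) and 1.44-fold on day 28 (-0.53, adjusted p = 0.0135). Without replicate 1 of day 10, the lowest array, the day 10 adjusted p was 0.0581.

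Pde8a in the labelled knockout was at 8.78, 8.84 and 9.03 on day 2 and at 8.48, 8.31 and 8.66 on day 28. These groups did not overlap, and the change of -0.40 had an adjusted p of 0.0606. It was called with the preparation as a block (adjusted p = 0.0290) and without replicate 3 of day 28 (adjusted p = 0.0441). The change in the labelled knockout differed from that in the labelled wild type by 0.13 on day 28, with a 95% interval from -0.35 to 0.61. The TGACG shown above in the Pde8a promoter is a feature of its sequence only. The genes most like Pde8a over the arrays were Larp1 (r = 0.90), Supt16 (r = 0.90) and Stk24 (r = 0.90).

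Pde4b and Pde4d, from the PDE4 genes, gave weak signals. Pde4d (17289742) reached the array median on 2 of 24 arrays, with signals between 4.17 and 4.73 and group means between 4.25 and 4.52. It was left out of the test, and in a fit with no filter on low values it was called in 0 of 13 comparisons, with changes from -0.16 to 0.23 and a lowest adjusted p of 0.546. Pde4b (17416023) was below the median on 8 of 24 arrays and was called in no comparison. Its day 5 arrays in the labelled wild type (4.80, 4.98 and 5.20) lay above those of day 2 (4.71, 4.50 and 4.13), a difference of 0.54 with an adjusted p of 0.365. In the labelled knockout on day 28 its arrays ran from 3.43 to 5.22, wider than in any other group. No change in Pde4b or Pde4d was thus called here, which does not show that a change was absent.

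Among the dual-specificity enzymes, Pde1a (17387276), which is activated by calcium and calmodulin, rose in both genotypes by day 28. In the labelled wild type its signal was 4.72, 5.25 and 4.83 on day 2, 5.58, 6.21 and 6.07 on day 5, 6.86, 7.14 and 6.36 on day 10, and 7.29, 7.04 and 7.51 on day 28. Each later day lay wholly above day 2. The rise was 3.61-fold on day 10 (log2 change 1.85, SE 0.35, adjusted p = 0.000471) and 5.08-fold on day 28 (2.34, adjusted p = 2.84e-05). On day 5 it was 1.02 and did not pass (adjusted p = 0.102). The day 5 rise was called with the preparation as a block (adjusted p = 0.0134) and with only the groups compared (adjusted p = 0.039).

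Pde1a in the labelled knockout was at 4.21, 5.53 and 4.64 on day 2, 5.28, 6.47 and 5.42 on day 10, and 6.53, 6.98 and 6.98 on day 28. Day 10 overlapped day 2, and day 28 lay above both. The day 28 rise was 4.09-fold (log2 change 2.03, adjusted p = 0.000139). The day 10 change of 0.93 had an adjusted p of 0.0595, of 0.00738 with the preparation as a block, of 0.0154 without replicate 2 of day 2 and of 0.0400 without replicate 1 of day 10.

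Replicate 2 gave the highest Pde1a signal of the labelled knockout on days 2, 5 and 10 (5.53, 6.03 and 6.47). The mean signal of 11 macrophage markers was also highest in that replicate on each of these days, at 5.58, 6.53 and 9.12, against 4.81 to 6.10 in the other arrays of those groups. So was the mean of 9 adipocyte markers, at 4.93, 4.78 and 6.57. The other arrays of those groups had adipocyte means of 4.49 and 4.86, 4.43 and 4.56, and 4.77 and 5.53. On days 2 and 5 these means lay near the array medians (4.55 to 4.72). On day 28 Pde1a was at 6.98 in replicates 2 and 3, which had the highest and the lowest macrophage mean (10.82 and 7.31). Pde7b was also highest in replicate 2 of the labelled knockout, on days 2, 5, 10 and 28 (6.91, 8.34, 9.75 and 10.34). The part of these markers in the Pde1a and Pde7b signals was not tested. Against the labelled wild type, Pde1a was lower by 1.06 on day 10 with overlapping arrays (adjusted p = 0.426). On day 28 the knockout arrays lay wholly below the wild type arrays, by 0.45 (adjusted p = 0.979).

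The order of the Pde1a group means put both day 28 groups first, which did not overlap each other, then day 10 of the labelled wild type. A gap with no overlap followed, of 0.83, before day 5 of the labelled wild type, and from there down to day 2 of the labelled knockout each neighbour overlapped the next. Emb (embigin, r = 0.94), Mfap5 (a microfibril protein, r = 0.94) and Dpep1 (a dipeptidase, r = 0.93) followed Pde1a most closely over the 24 arrays.

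Pde3b (17482021), the cGMP-inhibited enzyme through which insulin restrains lipolysis in fat cells, rose in the labelled wild type. Its signal there was 6.76, 6.91 and 7.24 on day 2, 6.08, 7.41 and 7.62 on day 5, 7.52, 8.20 and 7.71 on day 10, and 8.43, 8.71 and 8.59 on day 28. The day 28 arrays lay above every other array of the series. The rise was 3.05-fold on day 28 (log2 change 1.61, SE 0.31, adjusted p = 0.000438), and this call held when any 1 array was left out. On day 10 it was 1.79-fold (0.84, adjusted p = 0.0487). That call ended without replicate 1, 2 or 3 of day 2 (adjusted p = 0.142, 0.112 and 0.0506) and without replicate 2 or 3 of day 10 (0.192 and 0.0731), as well as with no filter (0.0654) and with array medians centred (0.0618).

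In the labelled knockout, Pde3b was at 6.58, 7.05 and 7.48 on day 2, 6.44, 6.90 and 7.06 on day 5, 6.79, 7.24 and 6.77 on day 10, and 7.77, 7.32 and 7.07 on day 28. Day 2 overlapped each later day. The day 28 change was 0.35 (adjusted p = 0.418). On days 10 and 28 every labelled knockout array lay below every labelled wild type array, as it did in either direction for 11.7% and 9.35% of all tested genes. The differences were -0.88 on day 10 and -1.19 on day 28, or 2.28-fold lower, with a 95% interval on day 28 from -1.85 to -0.53.

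Neither Pde3b difference passed after adjustment over all genes (adjusted p = 0.513 and 0.190). The change in the labelled knockout differed from that in the labelled wild type by -1.26 on day 28, with a 95% interval from -2.19 to -0.33 and an adjusted p of 1.0. Pde3b is thus called as risen in the labelled wild type and not in the labelled knockout, while the difference between them did not pass.

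Adipocyte markers rose with Pde3b in the labelled wild type, and in the labelled knockout they rose by day 28 while the Pde3b change did not pass. The 9 markers analysed here (Cfd was not analysed here) averaged 4.57 to 4.84 in the labelled wild type on day 2, and Adipoq, Cd36 and Lep were below the array median on all 3 arrays of day 2 in both genotypes. On day 10 the averages were 9.09, 8.75 and 6.50 in the labelled wild type and 4.77, 6.57 and 5.53 in the labelled knockout. On day 10 in the labelled wild type the array with the highest marker mean, replicate 1, had the lowest Pde3b signal (7.52). In the labelled knockout on day 10 it was the reverse, as replicate 2 had the highest marker mean and the highest Pde3b signal (7.24). On day 28 the averages were 9.82, 9.77 and 9.95 against 8.33, 8.54 and 8.19. Of the 9 markers, 9 rose by day 28 in each genotype, and on day 10 it was 9 in the labelled wild type and 1 in the labelled knockout.

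Between genotypes, 1 of the 9 markers was called lower in the labelled knockout on day 10 and 1 on day 28. The part of these markers in the Pde3b signal was not tested. In cultures of mixed cells, a change in the number of cells of a type and a change in RNA per cell cannot be told apart. Adipor2, an adiponectin receptor (r = 0.89), Aco1 (r = 0.88) and Aldh1a3 (r = 0.87) were the genes most like Pde3b over the 24 arrays.

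**Figure D2:**
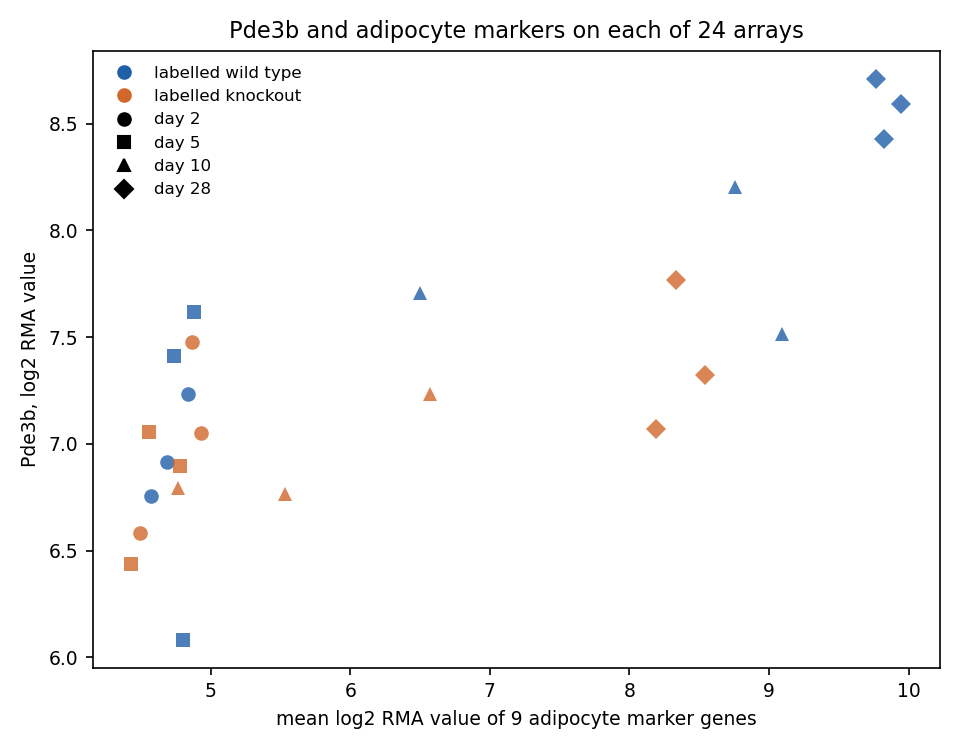
Pde3b log2 RMA signal (vertical axis) against the mean log2 RMA signal of 9 adipocyte marker genes (horizontal axis) on each of the 24 arrays, coloured by labelled genotype and shaped by day. The 3 wild type arrays of day 28 sit at the top right, with Pde3b from 8.43 to 8.71 and marker means from 9.77 to 9.95, and the 3 knockout arrays of day 28 have marker means from 8.19 to 8.54 and Pde3b from 7.07 to 7.77.

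Pde3a (17464040), the other cGMP-inhibited enzyme, was called in the labelled knockout, with less margin. Its signal there was 7.01, 7.17 and 7.32 on day 2, 7.87, 7.87 and 8.37 on day 10, and 8.33, 7.21 and 8.33 on day 28. Day 10 lay above day 2, while replicate 2 of day 28 fell within the day 2 range. The rise was 1.83-fold on day 10 (log2 change 0.87, SE 0.30, adjusted p = 0.0378) and 1.73-fold on day 28 (0.79, adjusted p = 0.0415).

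The day 10 call for Pde3a ended without any 1 of the 6 arrays of days 2 and 10 (adjusted p from 0.0514 to 0.151), with no filter (0.0521) and with array medians centred (0.0527). The day 28 call ended without any 1 array of days 2 and 28 other than replicate 2 of day 28 (adjusted p from 0.0601 to 0.171), and with no filter (0.0555), centred medians (0.0557) or only the groups compared (0.0898). In the labelled wild type Pde3a was at 7.12, 7.01 and 7.35 on day 2, 7.24, 7.87 and 8.08 on day 10, and 7.12, 7.25 and 7.99 on day 28. The days overlapped, and changes of 0.57 (adjusted p = 0.160) and 0.29 (adjusted p = 0.468) did not pass. With array weights the day 10 change was 0.78 (adjusted p = 0.0118).

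The difference between the genotypes' Pde3a changes on day 28 was 0.50, with a 95% interval from -0.38 to 1.38. The day 28 arrays with low Pde3a, replicate 2 of the labelled knockout and replicates 1 and 2 of the labelled wild type, averaged 8.14, 8.75 and 7.44 over 8 osteoblast markers. The day 28 arrays with high Pde3a averaged 9.83 and 10.45 in the labelled knockout and 9.90 in the labelled wild type. Replicate 2 of the labelled knockout also had the highest macrophage marker mean on day 28, at 10.82. The part of these markers was not tested. Slc12a2 (a sodium-potassium-chloride cotransporter, r = 0.91), Fras1 (r = 0.91) and Htra1 (r = 0.91) were the genes most like Pde3a.

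Pde10a (17333133), a dual-specificity enzyme best known from striatal neurons, was called once. In the labelled wild type it was at 5.47, 5.71 and 5.46 on day 2, 6.18, 6.51 and 5.78 on day 5, 5.78, 6.38 and 6.25 on day 10, and 5.87, 5.98 and 5.55 on day 28. The arrays of days 5 and 10 lay above those of day 2, and day 28 overlapped them. The day 10 rise was 0.59 on the log2 scale (SE 0.19, adjusted p = 0.0218). It did not pass without replicate 1 or 3 of day 2 (adjusted p = 0.0664 and 0.0692), without replicate 2 or 3 of day 10 (0.107 and 0.0702), or with only the groups compared (0.0508).

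On day 5 the Pde10a change was 0.61 (adjusted p = 0.0640), and it was called with the preparation as a block (0.0176) and without replicate 3 of day 5 (0.0160). With the block, 3 of the 9 members were thus called on day 5 in the labelled wild type, Pde1a and Pde10a beside Pde7b, as were 1366 of all 14892 tested genes. Pde10a in the labelled knockout was at 5.73, 5.67 and 5.57 on day 2 and 5.90, 6.29 and 5.95 on day 5. These groups did not overlap, and the change of 0.39 had an adjusted p of 0.330. Trerf1 (r = 0.81), Vcan (versican, r = 0.79) and Lrrtm2 (r = 0.77) were most like Pde10a.

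Pde5a (17402321), the cGMP-specific enzyme that sildenafil inhibits, was called in no comparison. Its highest group means were those of day 28, at 7.30 in the labelled wild type and 7.58 in the labelled knockout. In the labelled knockout it was at 6.80, 7.52 and 6.67 on day 2 and at 8.25, 6.88 and 7.61 on day 28, which overlap. The change of 0.59 had an adjusted p of 0.141, of 0.0496 without replicate 2 of day 2 and of 0.0200 without replicate 2 of day 28. Replicate 2 of day 28 was the array with low Pde3a described above.

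**Figure D3:**
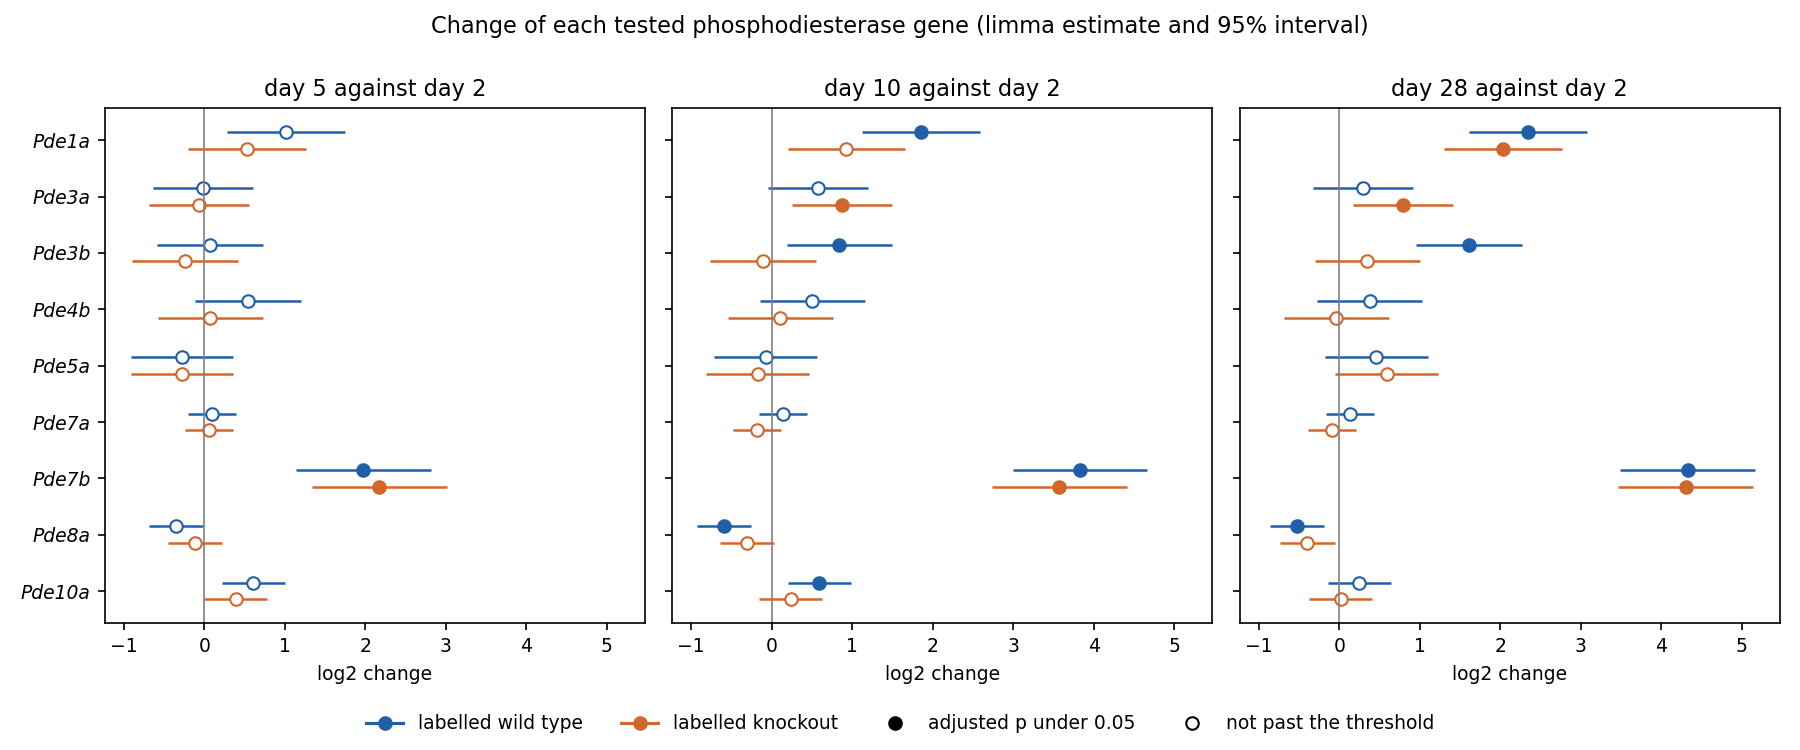
Log2 change of the 9 tested phosphodiesterase genes (horizontal axes) on days 5, 10 and 28 against day 2, as the limma estimate with its 95% interval, for the labelled wild type (blue) and the labelled knockout (orange); filled points have an adjusted p under 0.05. Pde7b stands farthest to the right in all 3 panels, at 4.33 and 4.30 on day 28, and Pde8a is the gene with filled points to the left of 0.

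Between the labelled genotypes, 0 of the 9 members were called on any day. Over all tested genes, 0.00672% were called on day 2, 0.00672% on day 5, 0.0336% on day 10 and 0.228% on day 28. At an unadjusted limma p under 0.05, 0 members passed on days 2 and 5. On day 10, Pde1a and Pde3b passed, where 7.74% of all genes did, and on day 28 Pde3b passed, where 5.71% did. The difference between the genotypes' changes was called for 0 of the 9 on day 5 (0.0% of all genes), day 10 (0.0%) and day 28 (0.00672%). Unadjusted, 0 members passed on day 5 (1.24% of all genes), and Pde3b passed on day 10 (3.84%) and on day 28 (2.75%).

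The other phosphodiesterase genes on the array showed smaller changes than Pde7b. Of 13 further genes of the family, 8 were tested. On day 28 Pde8b, the paralog of Pde8a, rose by 1.45 in the labelled wild type (adjusted p = 0.00211) and by 0.98 in the labelled knockout (adjusted p = 0.0285). Pde9a, a cGMP-specific enzyme, rose by 0.58 and 0.65, and Pde1b, a calcium and calmodulin activated enzyme, rose by 0.42 and 0.87, each past the threshold. Both started near the array median. On day 2 Pde9a was below it on 2 of 3 arrays in each genotype. Pde1b was below it on 1 of 3 in the labelled wild type and 2 of 3 in the labelled knockout. Pde4a fell by 0.71 in the labelled wild type (adjusted p = 0.0175), and its change of -0.28 in the labelled knockout did not pass. Pde4c fell by 0.34 in the labelled knockout (adjusted p = 0.0327), where all 3 day 28 arrays were below the array median. Its change in the labelled wild type was 0.02. The difference between the genotypes' day 28 changes was called for 0 of the 8 genes. In each genotype 3 of the 8 rose, 1 fell and 4 did not pass, with medians over the 8 genes of 0.30 and 0.37. Over all tested genes 19.6% rose and 19.2% fell in the labelled wild type, and 19.4% and 18.6% in the labelled knockout. With 8 genes, such counts are no result about the family.

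Upstream of these enzymes, the list of Gs, its receptors and their partners held 17 tested genes. By day 28, 8 rose, 0 fell and 9 did not pass in the labelled wild type, and 9 rose, 0 fell and 8 did not pass in the labelled knockout. Of all tested genes, 19.6% rose and 19.2% fell in the labelled wild type, and 19.4% rose and 18.6% fell in the labelled knockout. The same shares apply to the day 28 counts of the lists that follow. The largest changes were those of Tshr, the thyrotropin receptor (3.03 and 1.91), Adgrd1, an adhesion receptor (2.10 and 2.15), and Ptgir, the prostacyclin receptor (1.73 and 1.37). Calcrl, which with Ramp proteins forms the adrenomedullin receptor, rose by 1.65 and 1.19. The medians over the list were 0.40 and 0.67.

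Of 13 tested cyclase genes, 2 rose and 1 fell in the labelled wild type, and 3 rose and 0 fell in the labelled knockout (medians 0.35 and 0.24). Gucy1a1, a subunit of the nitric oxide receptor that makes cGMP, rose in both, by 2.00 (adjusted p = 0.00265) and 2.91 (adjusted p = 9.67e-05). The adenylyl cyclase genes called were Adcy5 (0.99) and Adcy7 (-0.76) in the labelled wild type, and Adcy2 (0.78) and Adcy9 (0.75) in the labelled knockout. Whether the calls differ between genotypes was tested gene by gene, and 0 of the 13 passed.

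Of 15 tested effector genes, 5 rose and 3 fell in the labelled wild type and 3 rose and 2 fell in the labelled knockout (medians 0.23 and 0.15). The cGMP-dependent kinases went in opposite directions, since Prkg1 rose by 1.13 and 1.10 while Prkg2 fell (-2.29 and -2.27). Of the regulatory subunits of protein kinase A, Prkar2a fell by 1.29 and 1.15. Prkar2b rose by 1.39 in the labelled wild type (adjusted p = 0.000135). Its change of 0.50 in the labelled knockout did not pass (adjusted p = 0.114), and the difference between the genotypes' changes was not called. Of 12 tested anchoring protein genes, 1 rose in each genotype (Akap13, by 0.74 and 0.76), and 3 fell in the labelled wild type and 1 in the labelled knockout (medians -0.07 and -0.12). Akap1 fell in both, and Pde4dip, whose product binds PDE4D, and Akap2 fell by 0.85 and 0.69 in the labelled wild type. In the labelled knockout the changes of Pde4dip and Akap2 were -0.36 and -0.35 and did not pass. Neither gene's difference between the genotypes' changes was called.

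Of 21 tested genes of cAMP-driven transcription, 4 rose and 4 fell by day 28 in the labelled wild type, and 5 rose and 3 fell in the labelled knockout (medians 0.16 and 0.11). Rgs2, a regulator of G protein signalling, rose by 3.52 and 3.02, and Ppargc1a, a coactivator of oxidative metabolism, rose by 3.06 and 2.42. Ptgs2, the inducible cyclooxygenase, fell by 5.90 and 5.66 on the log2 scale. Pck1, the gluconeogenic and glyceroneogenic enzyme, rose by 3.44 and 1.56, and was the 1 gene of the list that differed between genotypes on day 28 (-1.78, adjusted p = 0.0241). Pck1 and Ppargc1a are also expressed in fat cells, whose markers are given above.

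**Figure D4:**
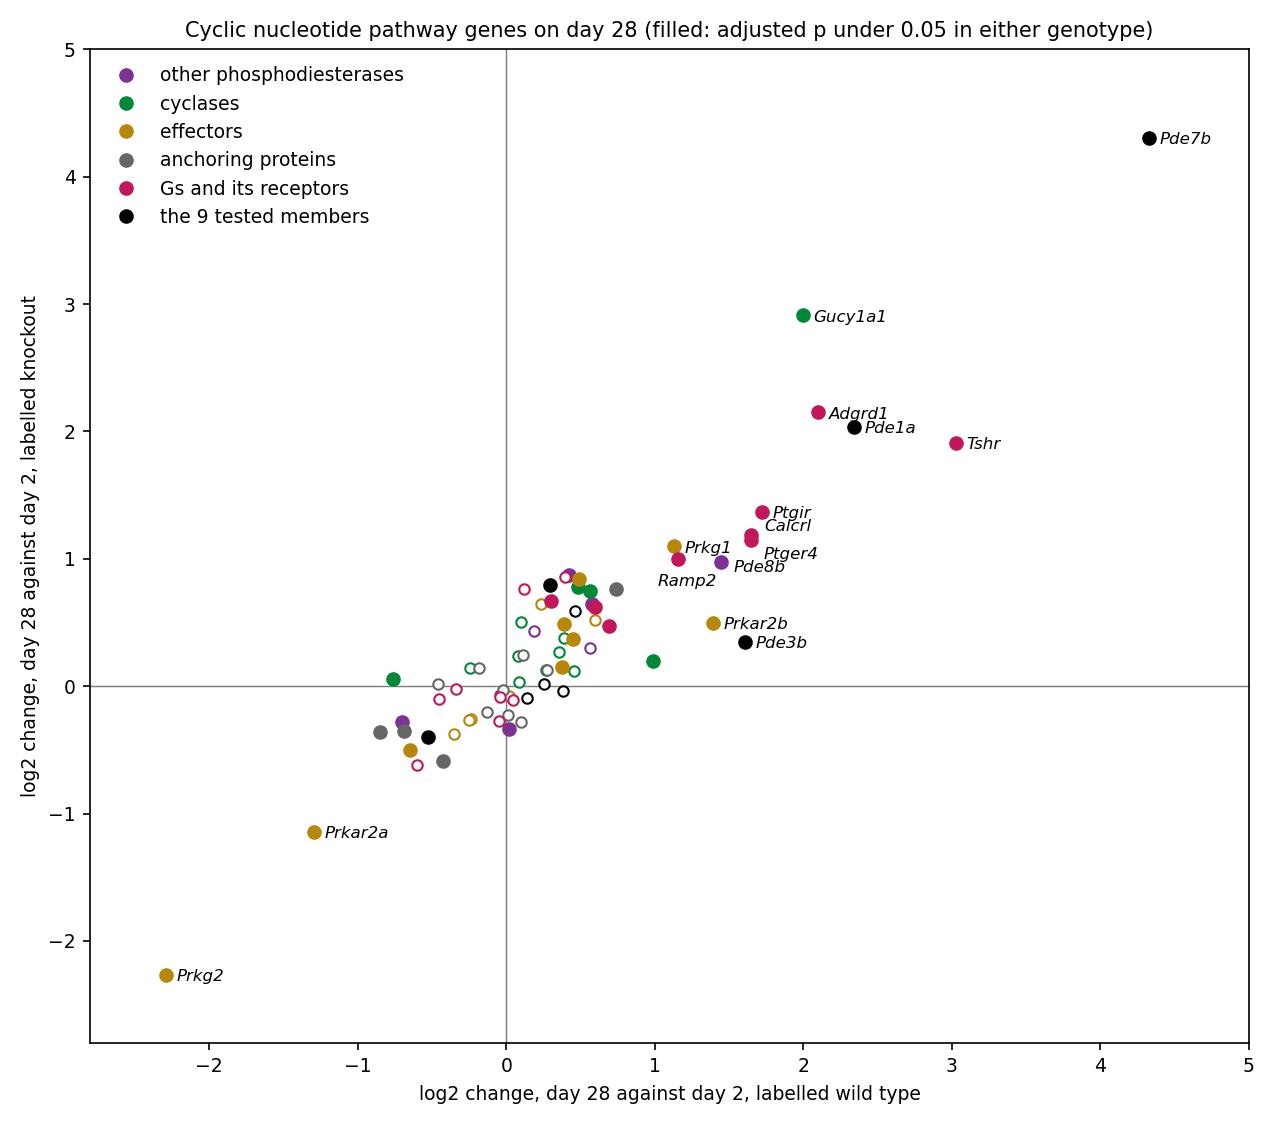
Log2 change from day 2 to day 28 in the labelled wild type (horizontal axis) and the labelled knockout (vertical axis) of the tested genes for other phosphodiesterases, cyclases, effectors, anchoring proteins, Gs and its receptors, and of the 9 tested members (black); filled points have an adjusted p under 0.05 in at least 1 genotype. Pde7b lies at the top right, at 4.33 and 4.30, and Prkg2 at the bottom left, at -2.29 and -2.27.

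The cultures held more than 1 cell type's markers. Of the 8 osteoblast markers analysed here (Runx2 and Spp1 were not analysed here), 3 rose and 1 fell by day 28 in the labelled wild type and 6 rose in the labelled knockout. Dmp1 and Phex were below the array median on day 2. All 11 macrophage markers rose by day 28 in both genotypes, from means of 4.72 to 4.88 on day 2 to 8.25 to 9.28 in the labelled wild type. On day 2, 5 of the 11 (Adgre1, C1qb, C1qc, Mrc1 and Ptprc) were below the array median on all 3 labelled wild type arrays. In the labelled knockout this held for Ptprc. Of 6 smooth muscle markers, 5 fell in each genotype, and 9 of 9 cell cycle genes fell in each. Of 5 skeletal muscle markers, 2 fell in each genotype. Of 4 endothelial markers tested, 1 rose in each and 1 fell in the labelled wild type. These shifts ran alongside the rises of Pde7b and Pde1a, and their part in them was not tested.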

How the data were processed

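Total RNA (100 ng per array, per the labels) was measured on Affymetrix Mouse Gene 2.0 ST arrays. The authors deposited log2 values made with Affymetrix Expression Console and RMA, as the submitters' processing notes name them. Their versions, and the build behind the array annotation, were not given in the sources used here. RMA equalises array distributions, which would remove a shift common to most genes. The values ran from 0.313 to 14.08 and array medians from 4.55 to 4.72. There were 0 pairs of identical columns, and no batch is named in the labels.

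Of 41345 transcript clusters, 23521 had 1 gene symbol, 1814 had several and were left out, and 16010 had none. For 1082 genes with several clusters, the one with the highest mean was kept, which gave 22180 genes, of which 14892 were tested. limma 3.58.1 in R 4.3.3 was fitted with 1 mean per genotype and day over all 24 arrays (16 residual and 4.00 prior degrees of freedom). Tests were two-sided, with Benjamini-Hochberg adjustment within each of 13 comparisons; every p-value given is limma's. The procedure was tested on simulated data in which arrays varied independently, so same-numbered arrays that deviate together were not covered. The simulated data changed a small part of the genes, in day 28 of the labelled wild type only. In the measured data 38.8% of tested genes were called there, and changes in so large a share were not covered either. The number of arrays limits the precision.

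Replicate numbers recur in all groups. Same-numbered arrays deviated together (every correlation of deviations from group means above 0.1, lowest 0.254, 0.145, 0.15 and 0.105) for day 5 against day 2 in the labelled wild type and for days 5, 10 and 28 in the labelled knockout. There the number was taken as the preparation, from the data and not from a stated design, and the fit with it as a block is given where it changed a call. The labels describe the cells as independently prepared. For changes over time the block was fitted to all days of both genotypes together. Its day 5 calls in the labelled wild type thus rest in part on days 10 and 28, where the lowest correlations with day 2 were 0.083 and 0.047. Comparisons over time share their day 2 arrays.

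Members and gene lists were chosen with earlier results of these data known. Named were the members, Arrb2, Arrb1, the 4 genes of a list with the largest change past the threshold, and the 3 genes most correlated with a called member, without predicted or unnamed symbols. Other phosphodiesterase genes could all be named. Genes and clusters named outside this rule (Pde7a's second cluster and single marker genes) were chosen after their values were seen. Promoters are from RefSeq (GRCm38.p6). Alternatives were no filter, an intensity trend, centred medians, array weights, only the groups compared, the block, another cluster, and leaving out each array.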

Additional observations from a re-analysis of the deposited data

How the results depend on the processing

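Of 1579 member results recomputed under an alternative, 1536 kept their direction and side of the threshold or stayed uncalled, 30 lost a call, 13 gained one and 0 reversed a called change; 96 uncalled values changed sign. Members called on day 5 went from 1 to 2 in the labelled wild type with only the groups compared and to 3 with the replicate block, and from 1 to 0 in the labelled knockout with only the groups compared. On day 10 in the labelled knockout they went from 2 to 1 with no filter and to 1 with centred medians. The block changed no other member call than those given with Pde1a, Pde8a and Pde10a. Leaving out 1 array gave 1 to 2 members for day 5 and 3 to 4 for day 10 in the labelled wild type, and 1 to 2 for day 10 in the labelled knockout.

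Counts over all genes moved more. Day 5 in the labelled wild type went from 826 to 463 with only the groups compared and 1366 with the replicate block (355 to 1067 without 1 array), and in the labelled knockout from 412 to 911 with array weights, 49 with only the groups compared and 695 with the block (124 to 408). Day 10 in the labelled knockout was 2396 to 3193 without 1 array, against 3665. Knockout against wild type on day 2 went from 1 to 4 (weights), 0 (only the groups compared) and 2 (block), with 0 to 2 without 1 array. On day 5 it went from 1 to 2 with no filter. On day 10 it went from 5 to 38 (weights), 1 (only the groups compared) and 31 (block), with 0 to 55 without 1 array, and on day 28 from 34 to 96 (weights) and 22 (only the groups compared), with 12 to 42 without 1 array. The difference of changes on day 28 went from 1 to 0 with no filter, 4 with weights, 3 with only the groups compared and 0 with the block (0 to 3 without 1 array), and on day 10 it was 0 to 27 without 1 array. The causes were not tested. Between genotypes and for days 10 and 28 in the labelled wild type the replicate block rests on a shared number only, and there it changed no member call. Signals near the array median, as for Pde4b and Pde4d, limit what could be seen.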
